A study of Mus musculus with 6 samples.

Results

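Genes of iron and copper handling were described in mammary epithelial cells (MECs) of wild-type and IL-21isoTg mice, and they were found in the count table by their gene symbols. They are the multicopper ferroxidases Hephl1, Heph and Cp, the iron-binding proteins Ltf and Trf, the iron uptake genes Tfrc and Slc11a2, the iron exporter Slc40a1 and the ferritin subunits Fth1 and Ftl1, in all 10 of the 55487 genes listed. Hephl1 was chosen by its difference between the genotypes in these same counts, and the other members were added as genes of the same function with those results known. The differences between the genotypes in these 10 genes are therefore given as a description, and where the text counts how many of them a test across all genes called, that count supports nothing.

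RNA was sequenced from MECs of 6 virgin female BALB/c mice aged 10 weeks, and each mouse gave 1 library. In the IL-21isoTg group (n = 3 mice), the mice carried a transgene for an isoform of the cytokine IL-21 that stays bound to the membrane, expressed specifically in T cells. The wild-type group (n = 3 mice) lacked the transgene and shared the strain, sex and age. The promoter of the transgene is not given in the sources used here, and MECs were the cells left after those with CD45 (leukocytes), CD31 (endothelium) or CD140a (fibroblasts) had been removed by magnetic beads. The stage of the estrous cycle was randomized, not matched.

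The total count per mouse lay between 15902886 and 25719244, and 17165 genes passed a filter on low counts. Levels are given as CPM, the count of a gene relative to a library size scaled by the TMM method, and 3 counts, taken as the lowest level that can be shown, corresponded to 0.112 to 0.280 CPM. All 8 luminal and all 6 basal epithelial markers passed the filter, with summed levels of 4815 to 8013 CPM for the luminal list and 1329 to 2642 CPM for the basal list. Genes typical of salivary glands took 4.86% to 40.4% of all counts, with the highest share in IL-21isoTg mouse 3 and the lowest in IL-21isoTg mouse 2. Il21 itself had 0, 0 and 37 counts in the libraries labelled wild-type against 795, 216 and 131 counts in those labelled IL-21isoTg, so 1 library labelled wild-type, that of mouse 3, held some Il21 counts. Values without that library and without IL-21isoTg mouse 3 are given below for Hephl1, Trf and Slc39a8.

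Iron enters most cells when transferrin, loaded with ferric iron, binds the transferrin receptor, and the iron then crosses the membrane of the endosome through the divalent metal transporter encoded by Slc11a2. Iron that is not used is stored inside ferritin shells made of heavy and light subunits, or leaves the cell through ferroportin, the product of Slc40a1. Multicopper ferroxidases need copper to oxidise ferrous iron so that transferrin can take it up, which ties iron release to copper supply. The mammary epithelium also passes iron and copper into milk, and in rodents it makes transferrin and lactoferrin as milk proteins.

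Some genes of iron handling, the ferritins and Tfrc among them, are known to be controlled after transcription by iron-responsive elements, RNA hairpins with a CAGUGN loop that bind the iron regulatory proteins. In the 5′ UTR such an element blocks translation when iron is low, and in the 3′ UTR of Tfrc it protects the mRNA from decay. A motif with the letters CNNNNNCAGTGN on the transcribed strand and at least 4 of 5 paired bases in the upper stem was searched in the UTRs of the GENCODE annotation of GRCm38. It was found in 5 of the 10 genes, against 5% of the 21901 genes with a coding transcript (0.941% in a 5′ UTR and 4.08% in a 3′ UTR). The matches are shown because such elements are known in genes of iron handling, and capitals mark the 6 bases of the loop.
Fth1, 5′ UTR, chr19:9982732-9982761, plus strand: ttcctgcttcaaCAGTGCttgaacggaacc
Ftl1, 5′ UTR, chr7:45459778-45459807, minus strand: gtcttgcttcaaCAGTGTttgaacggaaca
Slc40a1, 5′ UTR, chr1:45925464-45925493, minus strand: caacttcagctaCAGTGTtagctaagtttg
Slc11a2, 3′ UTR, chr15:100395152-100395181, minus strand: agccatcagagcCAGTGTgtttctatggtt
Tfrc, 3′ UTR, chr16:32631219-32631248, plus strand: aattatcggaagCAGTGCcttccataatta
Tfrc, 3′ UTR, chr16:32631598-32631627, plus strand: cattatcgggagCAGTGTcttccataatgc
Tfrc, 3′ UTR, chr16:32631663-32631692, plus strand: ctatatcggagaCAGTGAtctccatatgtt
Tfrc, 3′ UTR, chr16:32631710-32631739, plus strand: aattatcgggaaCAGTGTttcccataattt

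All 5 stem pairs were present in each of these except the Slc11a2 site, which had 4 of 5. The Slc11a2 site lay in 1 of 6 coding transcripts and the Slc40a1 site in 1 of 4. Each Tfrc site lay in 1 of 3, the Ftl1 site in 1 of 2 and the Fth1 site in 4 of 5. Counts summed over a gene therefore do not say how many of its mRNAs carried the site, and a match is no measure of control by iron. No match was found in the UTRs of Hephl1, Heph, Cp, Ltf or Trf, which says only that these letters were not in those windows.

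The 10 genes spanned a wide range of levels. Per transcript length (TPM), the wild-type order ran from Trf with 1467 ± 900.4 TPM (SD, n = 3) through Ltf, Ftl1, Fth1, Cp, Tfrc, Slc11a2, Heph and Slc40a1 to Hephl1 with 0.234 ± 0.247 TPM (SD, n = 3). The ranges of the wild-type mice overlapped between Trf and Ltf, Ltf and Ftl1, Ftl1 and Fth1, and Cp and Tfrc, although Trf exceeded Ltf within each of the 3 mice. Within a mouse, Ltf exceeded Ftl1 in 1 of 3, Ftl1 exceeded Fth1 in 2 of 3 and Cp exceeded Tfrc in 2 of 3. The remaining neighbours in that order, from Tfrc down to Hephl1 and from Fth1 to Cp, had ranges that did not overlap. In IL-21isoTg MECs Hephl1 reached 3.09 ± 1.81 TPM (SD, n = 3) and stood above Slc40a1 in all 3 mice, although the ranges of the 2 genes overlapped between mice. The other places were kept apart from Fth1 and Ftl1, which exchanged places at 674.5 and 671.2 TPM with ranges that overlapped.

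**Figure D1:**
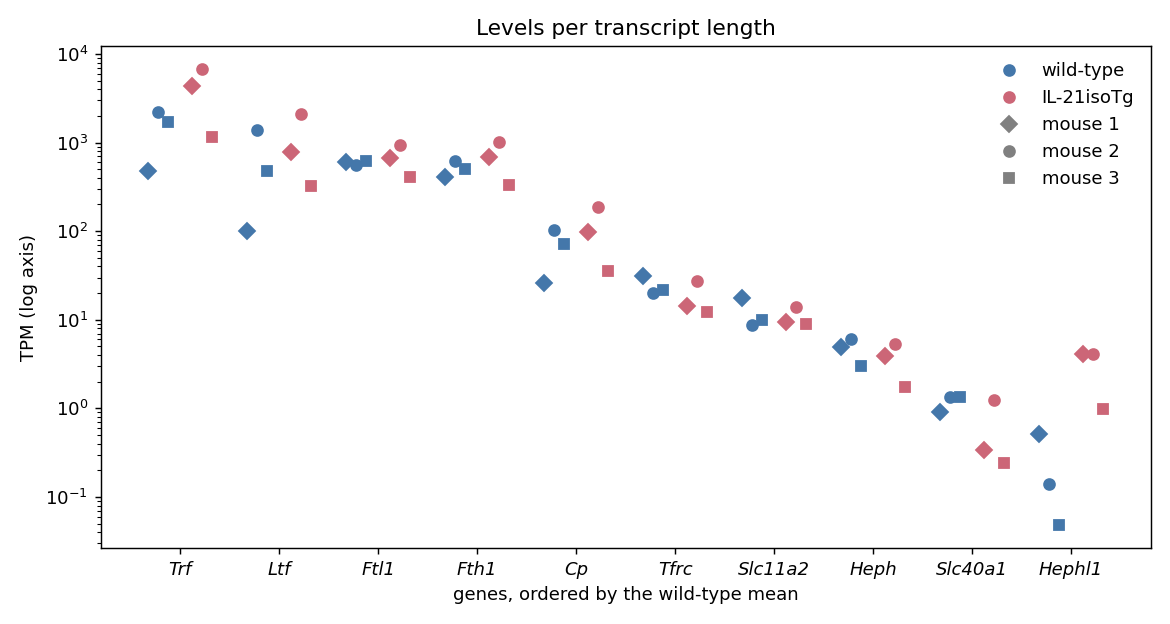
Level per transcript length of the 10 genes in each mouse, as TPM on a log axis, with genes ordered by their wild-type mean, colour for the genotype and marker shape for the mouse number. Trf has the highest mean in both genotypes, although Ftl1 exceeds it in wild-type mouse 1, and Hephl1, the lowest gene in all 3 wild-type mice, lies between 0.997 and 4.15 TPM in the IL-21isoTg mice.

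Over the whole table, the quasi-likelihood test of edgeR, adjusted by Benjamini-Hochberg, called 0% of 17165 genes at an adjusted p under 0.05, and 0 of the 10 genes. At an unadjusted p under 0.05 it gave 548 genes higher (3.19%) and 451 genes lower (2.63%) in IL-21isoTg MECs. DESeq2, run as an alternative, called 0.467% of 17137 genes, among them 1 of the 10, Hephl1. The levels of the 3 IL-21isoTg mice all lay above those of the 3 wild-type mice for 4 of the 10 genes, Hephl1, Trf, Fth1 and Ftl1, against 5.54% of all genes tested. All 3 lay below for 0 of the 10, against 6.54% of all genes. The median log2 fold change (IL-21isoTg over wild-type) was 0.57 over the 10 genes and 0.46 over the 9 without Hephl1, beside -0.02 over all genes tested. Because the genes were chosen with this comparison known, nothing is read from these counts.

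The 4 genes that stood apart did so on the TMM scale. When levels were set on the plain library totals, in which the salivary gland genes are included, the median over all genes moved from -0.02 to -0.27 and only Hephl1 of the 10 kept its groups apart. In IL-21isoTg mouse 3, Trf then lay within the wild-type range at 1803 CPM of the total, and Fth1 and Ftl1 lay below it at 543.5 and 253.98 CPM of the total. With the salivary gland and milk protein genes left out of the library size before TMM, the same 4 genes stood apart. A mixed preparation adds a further limit, since in bulk RNA a change in the number of cells of a type and a change in RNA per cell cannot be told apart.

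**Figure D2:**
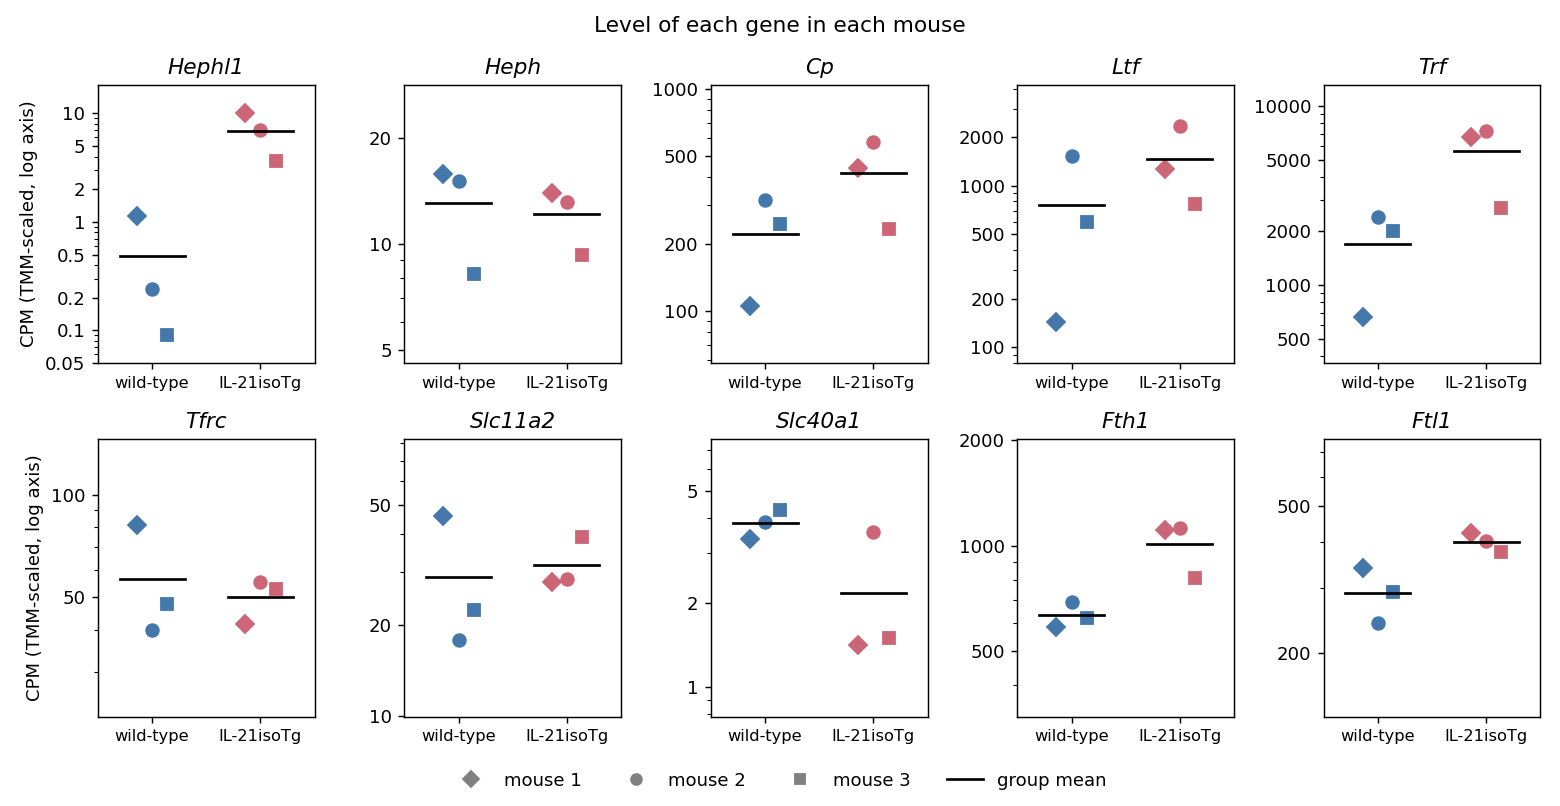
Level of each gene in each mouse, in TMM-scaled CPM on a log axis that differs between panels, with black lines for the group means and marker shapes for the mouse number (n = 3 mice per genotype). The groups do not overlap for Hephl1, Trf, Fth1 and Ftl1, and they overlap for the other 6 genes.

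Hephl1 (ENSMUSG00000031936) encodes the hephaestin-like ferroxidase also named zyklopen, a membrane protein first described in placenta whose loss in mice gives curled whiskers. Its position in GRCm38 is chromosome 9, from 15051841 to 15112108 (minus strand), with 20 exons in its only annotated transcript. Its counts were 25, 5 and 2 in wild-type mice 1 to 3 against 244, 189 and 39 in IL-21isoTg mice 1 to 3. These correspond to 1.13, 0.240 and 0.0900 CPM and to 10.1, 7.04 and 3.64 CPM. Each of the IL-21isoTg mice exceeded each of the wild-type mice, and the value of wild-type mouse 3 was under the floor of 3 counts.

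The exact 95% Poisson interval, which covers counting error only, reached up to 1.66 CPM in wild-type mouse 1 and down to 2.59 CPM in IL-21isoTg mouse 3, the nearest mice of the 2 groups. In wild-type mouse 3 the interval ran from 0.0109 to 0.325 CPM. The means were 0.486 ± 0.561 CPM (SD, n = 3) and 6.94 ± 3.25 CPM (SD, n = 3), a ratio of means of 14.3, and the fitted log2 fold change was 3.82 (standard error 0.81). It changed most without wild-type mouse 1, the highest of its group, and was then larger, at 5.38. It was 3.33 without wild-type mouse 3 and 4.13 without IL-21isoTg mouse 3, and it stayed between 3.33 and 5.38 with any 1 mouse left out.

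Within a genotype, the order of the mice in Hephl1 was not that of the salivary gland genes, whose share was 22.6%, 6.53% and 15.5% in wild-type mice 1 to 3 against 22.2%, 4.86% and 40.4% in IL-21isoTg mice 1 to 3. Trf, Cp, Ltf and Fth1 ran in the reverse order of that share in both genotypes, and the other members did not. The part of the salivary gland share in the level of any member was not tested. Milk protein markers, 8 genes that include the caseins, moved with the genotype as Hephl1 did. Their summed level was 538.2, 522.8 and 1733 CPM in wild-type mice against 20366, 15762 and 8818 CPM in IL-21isoTg mice (exact permutation test, both sides counted, p = 0.1, the smallest that 3 mice against 3 allow). IL-21isoTg mice 1, 2 and 3 held the same order in Hephl1 and in the milk protein sum. In the wild-type group the mouse with the highest milk protein sum, mouse 3, had the lowest Hephl1 level, at 2 counts. Its Poisson interval (0.0109 to 0.325 CPM) overlapped that of wild-type mouse 2 (0.0780 to 0.561 CPM), so the order of these mice is not resolved. The library of wild-type mouse 3 was also the one with 37 Il21 counts. The part of the milk protein genes, or of the cells that make them, in the levels of Hephl1, Trf and the ferritins was not tested.

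The 5 genes whose pattern over the 6 mice was most like that of Hephl1, by Pearson's r of log2 CPM with a prior count of 2, were Cd1d2 (r = 0.98), Ch25h (r = 0.98), Gpx7 (r = 0.97), Rusc2 (r = 0.97) and 4930551O13Rik (r = 0.97). These r values are a description over mice that share the same libraries and scaling and form 2 groups by genotype. Ch25h, the cholesterol 25-hydroxylase, had 2.07, 0.769 and 0.810 CPM in wild-type mice against 5.95, 4.17 and 4.76 CPM in IL-21isoTg mice. Rusc2 had 16.2 to 20.6 CPM in wild-type mice against 22.8 to 26.9 CPM in IL-21isoTg mice.

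Heph (ENSMUSG00000031209), the ferroxidase of the intestinal epithelium whose mutation causes sex-linked anaemia in mice, lies on chromosome X from 96455359 to 96574485. It had 15.8, 15.1 and 8.23 CPM in wild-type mice against 13.97, 13.1 and 9.33 CPM in IL-21isoTg mice. Mouse 3 was lowest in both groups and the groups overlapped. The log2 fold change was -0.10 (standard error 0.30), and its sign turned without wild-type mouse 1, wild-type mouse 2 or IL-21isoTg mouse 3, with values from -0.34 to 0.07.

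Cp (ENSMUSG00000003617) encodes ceruloplasmin, the copper-carrying ferroxidase of plasma, and lies on chromosome 3 from 19957054 to 20009145. It had 104.6, 316.7 and 246.8 CPM in wild-type mice against 441.7, 579.1 and 233.1 CPM in IL-21isoTg mice. IL-21isoTg mouse 3 fell between the wild-type mice, so the groups overlapped, and wild-type mouse 1 stood lowest. The log2 fold change was 0.91 (standard error 0.45), and it ran from 0.58 without wild-type mouse 1 to 1.25 without wild-type mouse 2. It was 0.99 without wild-type mouse 3, and it lay within that range without IL-21isoTg mouse 3. Hps3 shares 108 bp of exon with Cp on the opposite strand and had at most 297 counts, beside at least 2320 for Cp.

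The 3 ferroxidases thus differed in level as well as in pattern. Cp exceeded Heph per transcript length in all 6 mice, with means of 66.8 and 4.68 TPM in wild-type MECs. Hephl1 had a mean of 3.09 TPM in IL-21isoTg MECs, beside 3.66 TPM for Heph in the same mice.

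Trf (ENSMUSG00000032554) encodes serum transferrin, the carrier of ferric iron in blood, and is also made by the mammary epithelium of mice. It lies on chromosome 9 from 103204001 to 103230444 (minus strand). It had 658.9, 2408 and 2007 CPM in wild-type mice against 6746, 7277 and 2675 CPM in IL-21isoTg mice. The groups did not overlap, with IL-21isoTg mouse 3 next to the 2 higher wild-type mice and wild-type mouse 1 far below them.

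The Trf means were 1691 ± 916.4 CPM (SD, n = 3) and 5566 ± 2518 CPM (SD, n = 3), and the log2 fold change was 1.72 (standard error 0.57). It was 1.34 without wild-type mouse 1, 1.86 without wild-type mouse 3 and 2.06 without IL-21isoTg mouse 3. Trf alone took 0.0655%, 0.295% and 0.222% of all counts in wild-type mice against 0.631%, 0.849% and 0.180% in IL-21isoTg mice. The annotated gene Gm20425 shares 2108 bp of exon with Trf on the same strand. Its gene identifier was not found among the genes of the deposited counts. How reads in that stretch were assigned is not given in the sources used here.

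Ltf (ENSMUSG00000032496) encodes lactoferrin, an iron-binding milk protein that neutrophils also store in their granules, and lies on chromosome 9 from 111019271 to 111042767. It had 143.4, 1540 and 594.2 CPM in wild-type mice against 1266, 2343 and 767.1 CPM in IL-21isoTg mice. Among its wild-type mice the highest level was 10.7 times the lowest, the widest spread of the 10 genes after Hephl1 in that group, and the groups overlapped. The log2 fold change was 0.94 (standard error 0.76) and reached 1.99 without wild-type mouse 2 and 0.42 without IL-21isoTg mouse 2.

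Neutrophil markers were at or near 0 in these libraries. Of 9 such genes, 1 passed the filter, and their summed level was at most 2.30 CPM in any mouse. Retnlg had no count in any mouse. Ltf was at least 143.4 CPM in the same mice, and the part of neutrophils in its level was not tested.

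Fth1 (ENSMUSG00000024661) encodes the ferritin heavy chain, which oxidises iron as it enters the shell, and lies on chromosome 19 from 9980598 to 9985098. It had 584.6, 692.6 and 620.9 CPM in wild-type mice against 1107, 1124 and 806.1 CPM in IL-21isoTg mice. The groups did not overlap, and the wild-type mice lay close together. The means were 632.7 ± 54.95 CPM (SD, n = 3) and 1012 ± 178.98 CPM (SD, n = 3), and the log2 fold change was 0.68 (standard error 0.22), between 0.60 and 0.83 with any 1 mouse left out.

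Ftl1 (ENSMUSG00000050708) encodes the ferritin light chain, which helps the iron core to form, and lies on chromosome 7 from 45457944 to 45459884 (minus strand). It had 339.9, 242.1 and 292.7 CPM in wild-type mice against 424.2, 402.0 and 376.7 CPM in IL-21isoTg mice. The groups did not overlap, with IL-21isoTg mouse 3 and wild-type mouse 1 as nearest neighbours. The log2 fold change was 0.46 (standard error 0.19), between 0.34 and 0.60 with any 1 mouse left out, and it was 0.22 on the plain library totals.

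The ferritin counts could be shared with other annotated genes. Gm10252 overlaps 355 bp of Ftl1 exon on the opposite strand and had 79.1% to 87.3% as many counts as Ftl1 in every mouse. The sources used here do not say if reads were counted by strand, so reads of Ftl1 and Gm10252 cannot be told apart. The processed copies took few counts, with 49 to 112 for Ftl1-ps1 and 0 to 15 for Fth-ps2.

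Tfrc (ENSMUSG00000022797), the transferrin receptor, lies on chromosome 16 from 32608920 to 32632794. It had 81.2, 39.9 and 47.5 CPM in wild-type mice against 41.6, 55.2 and 52.7 CPM in IL-21isoTg mice. Wild-type mouse 1 was the highest of all, and without it the log2 fold change of -0.17 (standard error 0.27) became 0.20. Red cell precursors carry much transferrin receptor, and the erythroid markers summed to 73.8, 4.76 and 13.0 CPM in wild-type mice against 97.3, 4.54 and 24.5 CPM in IL-21isoTg mice. The erythroid sum was highest in IL-21isoTg mouse 1 and next highest in wild-type mouse 1, and its part in the Tfrc level was not tested.

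Slc11a2 (ENSMUSG00000023030), the divalent metal transporter of endosomes and of the gut, lies on chromosome 15 from 100387898 to 100425072 (minus strand). It had 46.1, 17.9 and 22.5 CPM in wild-type mice against 27.8, 28.4 and 39.2 CPM in IL-21isoTg mice. Wild-type mouse 1 was again the highest, and the groups overlapped. The log2 fold change was 0.14 (standard error 0.35), and it ran from -0.11 without wild-type mouse 2 to 0.66 without wild-type mouse 1, with a value of -0.12 on the plain library totals.

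Slc40a1 (ENSMUSG00000025993), which encodes ferroportin, lies on chromosome 1 from 45908068 to 45926523 (minus strand). It had 75, 81 and 95 counts in the wild-type mice, or 3.38, 3.89 and 4.27 CPM. In the IL-21isoTg mice it had 34, 96 and 16 counts, or 1.41, 3.57 and 1.49 CPM. IL-21isoTg mice 1 and 3 lay below all wild-type mice and IL-21isoTg mouse 2 lay among them. The log2 fold change was -0.81 (standard error 0.44), and without IL-21isoTg mouse 2 it was farther from 0, at -1.40. Macrophages express ferroportin at a high level, and the macrophage markers summed to 169.5 to 232.2 CPM in wild-type mice and to 326.7, 370.7 and 148.6 CPM in IL-21isoTg mice 1, 2 and 3. Of 8 tested macrophage markers, 3 had a log2 fold change above 0, with a median of -0.08. At an unadjusted p under 0.05, 0 were higher and 0 lower, so the sum does not stand for the whole list. The part of macrophages in the Slc40a1 level was not tested.

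**Figure D3:**
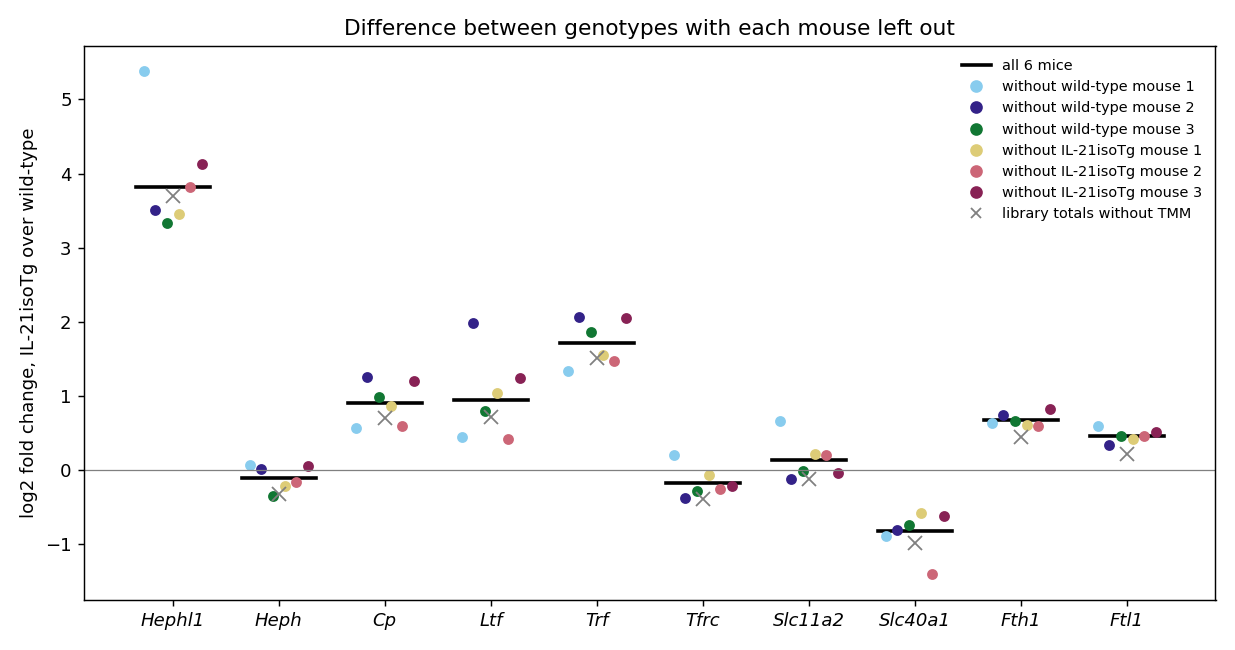
Log2 fold change (IL-21isoTg over wild-type) of the 10 genes with all 6 mice (black lines), with each mouse left out in turn (coloured points) and on plain library totals without TMM (crosses). Hephl1 stays between 3.33 and 5.38 with any mouse left out, while Heph, Tfrc and Slc11a2 cross 0.

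Other genes of iron and copper handling were examined in 9 lists with 73 genes, of which 68 passed the filter. None of the 68 was called by edgeR's quasi-likelihood test, and DESeq2 called 1 (Slc39a8). At an unadjusted p under 0.05, 9 of the 68 were higher in IL-21isoTg MECs, beside 3.19% of all genes tested. At the same threshold 0 were lower, beside 2.63%. These lists, like the 10 genes, were chosen with earlier results of these data known, so nothing is read from these counts. On the plain library totals 1 was higher (Slc39a8) and 1 lower (Moxd1), while with DESeq2's size factors 10 were higher. The other 8 were thus past that threshold on both scaled library sizes but not on the unscaled totals, where their log2 fold changes were still above 0, among them 0.76 for Lox, 0.53 for Loxl1 and 0.68 for Steap3. The groups did not overlap for 9 that were higher (5.54% of all genes) and 1 that was lower (6.54%). The median log2 fold change over the 68 was 0.09, beside -0.02 over all genes tested. On the plain library totals it was -0.16, beside -0.27 over all genes tested. The 5 genes that did not pass were Tfr2, Ftmt, Hamp2, Hjv and Hpx, with at most 24 counts in any mouse.

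**Figure D4:**
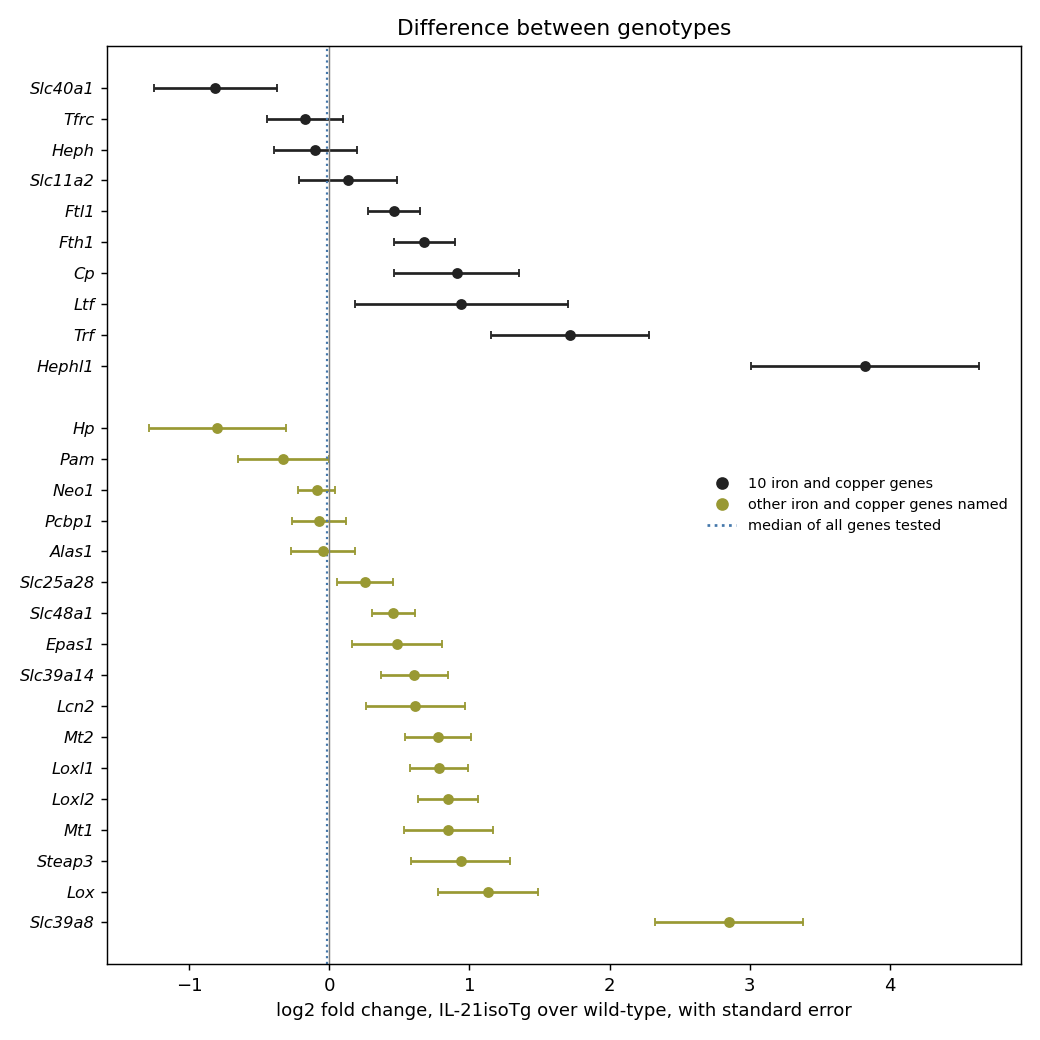
Log2 fold change (IL-21isoTg over wild-type) with its standard error for the 10 genes (black) and for the other iron and copper genes named by rule (ochre), with the median of all genes tested as a dotted line. Hephl1 at 3.82 and Slc39a8 at 2.85 lie farthest to the right, and Slc40a1 and Hp lie lowest at -0.81 and -0.80.

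Among 10 tested genes of cellular iron uptake and its reductases, 3 were higher at an unadjusted p under 0.05, beside 3.19% of all genes. Slc39a8 encodes ZIP8, a transporter of zinc, manganese and iron, and had 4.19, 5.62 and 2.61 CPM in wild-type mice against 51.4, 25.4 and 12.6 CPM in IL-21isoTg mice. The groups did not overlap, and the log2 fold change was 2.85 (standard error 0.53, edgeR adjusted p = 0.418). It was 2.61 without wild-type mouse 3 and 3.23 without IL-21isoTg mouse 3. DESeq2 gave an adjusted p of 1.29e-05 and edgeR's likelihood ratio test 0.000208, and it did not pass under any alternative with edgeR's quasi-likelihood test or with limma-voom, where its adjusted p lay between 0.169 and 0.994. Steap3, a ferrireductase of the endosome, had 12.7, 34.6 and 30.5 CPM and 51.9, 57.8 and 39.2 CPM (log2 fold change 0.94, standard error 0.35, edgeR adjusted p = 0.809). Slc39a14, the close relative ZIP14, overlapped between the groups with 96.5 to 129.9 CPM and 119.2 to 210.7 CPM, and Lcn2, the siderophore-binding lipocalin, had the highest mean CPM of the list with 395.3 to 627.0 CPM and 405.7 to 1032 CPM.

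Genes that load ferritin or sense iron were not past the unadjusted threshold. Pcbp1, which delivers iron to ferritin, had 271.8 ± 14.5 CPM (SD, n = 3) and 258.1 ± 55.2 CPM (SD, n = 3), and 0 of 3 tested genes of ferritin loading were past an unadjusted p of 0.05. None of 4 genes of the iron regulatory proteins and their partners passed either, and Epas1, a hypoxia factor whose mRNA carries an iron-responsive element, had 54.0 to 118.4 CPM and 82.2 to 153.3 CPM. Of the hepcidin axis, 0 of 7 passed, and Neo1, with the highest mean CPM of the list, had 66.3 to 69.1 CPM in wild-type mice against 60.3 to 65.0 CPM in IL-21isoTg mice. Hamp and Bmp2, named after their values were seen, did not overlap between the groups in CPM, and Hamp, which encodes hepcidin, had 7 to 13 counts in wild-type mice against 11 to 30 counts in IL-21isoTg mice (edgeR adjusted p = 0.809).

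Mitochondrial iron and heme synthesis genes gave 0 of 7 and 0 of 9 at an unadjusted p under 0.05. Slc25a28, a mitochondrial iron importer, had 35.8 to 41.5 CPM and 35.9 to 58.9 CPM, and Alas1, the first enzyme of heme synthesis, had 47.6 to 79.3 CPM and 52.0 to 64.9 CPM. Among 8 tested genes of heme transport and breakdown, Slc48a1, a heme transporter, was higher with 33.6 to 42.0 CPM against 49.0 to 57.4 CPM (log2 fold change 0.46, standard error 0.15, edgeR adjusted p = 0.809). Hp, the hemoglobin-binding haptoglobin, had 108.3, 366.3 and 261.2 CPM in wild-type mice against 136.8, 211.3 and 74.0 CPM in IL-21isoTg mice, with groups that overlapped.

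Of 12 genes of copper transport and its chaperones, 2 were higher at an unadjusted p under 0.05, beside 3.19% of all genes tested. They were the metallothioneins Mt1 and Mt2, which bind copper and zinc. Mt2 had 497.8, 315.1 and 376.4 CPM in wild-type mice against 636.0, 601.0 and 798.3 CPM in IL-21isoTg mice (log2 fold change 0.77, standard error 0.23, edgeR adjusted p = 0.809). Mt1 overlapped between the groups, with 302.8 to 501.3 CPM and 494.0 to 1035 CPM, and was highest in IL-21isoTg mouse 3.

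Of 8 copper enzymes, 3 were higher at an unadjusted p under 0.05, beside 3.19% of all genes tested. All 3 were lysyl oxidases, which cross-link collagen and elastin. Lox had 4.10, 8.31 and 8.19 CPM in wild-type mice against 15.4, 10.1 and 19.9 CPM in IL-21isoTg mice (log2 fold change 1.13, standard error 0.36, edgeR adjusted p = 0.809). Loxl1 had log2 fold change 0.78 (standard error 0.21) and Loxl2 0.85 (standard error 0.21), and all 3 genes kept their groups apart. Pam, with the highest mean CPM of the list, had 68.1 to 185.3 CPM and 91.6 to 102.3 CPM. The 6 fibroblast markers, of which 5 had a log2 fold change above 0 and 3 were higher at an unadjusted p under 0.05, had a summed level of 1929 to 3416 CPM in wild-type mice against 4275 to 4936 CPM in IL-21isoTg mice, and their part in the level of the lysyl oxidases was not tested.

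Markers of the other cell types that the preparation could hold were summed in 12 lists. Apart from milk proteins and fibroblasts, whose groups did not overlap, the lists overlapped between the genotypes. With Benjamini-Hochberg adjustment over the lists, the smallest adjusted exact permutation p was 0.4. With 3 mice against 3 the unadjusted p cannot fall below 0.1, so this test could not call any list and nothing is read from it. The endothelial list summed to 59.1 to 150.4 CPM in wild-type mice against 89.5 to 260.1 CPM in IL-21isoTg mice. The adipocyte list summed to 25.4 to 67.8 CPM and 30.1 to 192.2 CPM, and the T cell and B cell lists to at most 8.86 and 5.82 CPM. All 5 endothelial markers had a log2 fold change above 0, with 2 higher at an unadjusted p under 0.05, beside 3.19% of all genes. Of the adipocyte markers, all 3 tested were above 0, with 1 higher at that threshold.

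**Figure D5:**
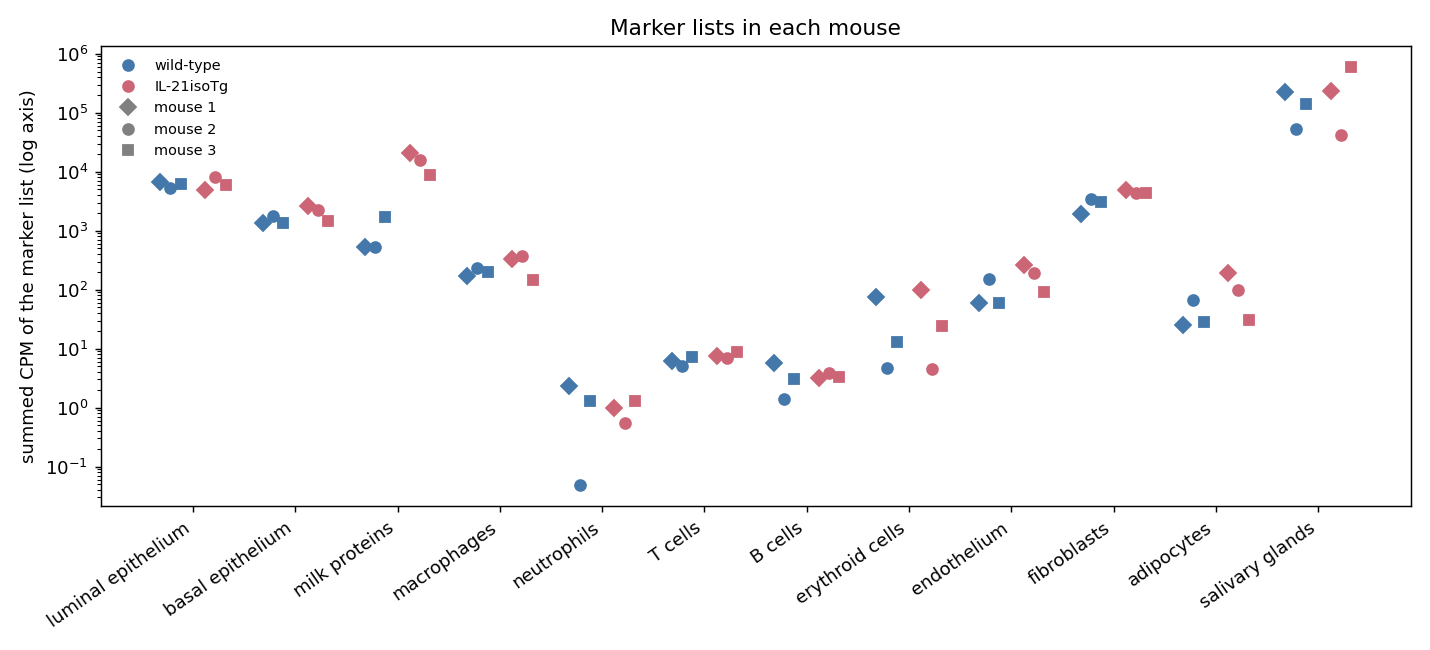
Summed level of each marker list in each mouse, in TMM-scaled CPM on a log axis, with colour for the genotype and marker shape for the mouse number. The milk protein and fibroblast lists do not overlap between the genotypes, the neutrophil list lies at 2.30 CPM or lower, and the salivary gland list varies most in absolute terms.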

How the data were processed

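The authors deposited raw counts of reads per gene for 6 libraries, made from poly(A)-selected RNA with a directional kit and sequenced as paired ends. The submitters' processing notes name FastQC 0.11.7, Trimmomatic 0.38, HISAT2 2.1.0, SAMtools 1.9, featureCounts 1.6.3, DESeq2 1.24.0 and the build mm10, and the strand setting is not given in the sources used here. The authors also deposited scaled counts, not used here, and a table of their own comparison (fold changes and p-values), of which gene positions alone were used. Of 31286 genes with a position in that table and in GENCODE M21 (GRCm38), 30993 had the same one.

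From the counts, genes were filtered (filterByExpr, minimum count 10, total 15), scaled with TMM and compared with edgeR 4.0.16 (quasi-likelihood, robust, genotype as the only term, Benjamini-Hochberg over 17165 genes) in R 4.3.3, and a gene was called below an adjusted p of 0.05. Alternatives were fitted with DESeq2 1.42.0 and limma 3.58.1. Replicates of a group differed by more than sampling noise. TPM used the union of annotated exons. Single sums were compared by exact permutation tests, two-sided. P-values measure the spread between mice.

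The members and gene lists were chosen with earlier results of these data known. The text names the 10 members, from each pathway list the gene with the highest mean CPM and those with an unadjusted p under 0.05, and the 5 genes most like Hephl1. No sample was left out. Alternatives were other scalings, filters and tests, a replicate block and leaving out each mouse. Scaling on library totals was added after the salivary gland share was seen.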

Additional observations from a re-analysis of the deposited data

How the results depend on the processing

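The count of genes called by edgeR's quasi-likelihood test was 0 in each direction, and it stayed at 0 higher and 0 lower with DESeq2's size factors, with the salivary gland and milk protein genes left out of the library size, with at least 10 counts in every mouse, with limma-voom and with non-robust dispersions. It was 14 higher without a filter, 3 higher on library totals without TMM, 72 higher and 8 lower with DESeq2, and 52 higher and 13 lower with edgeR's likelihood ratio test. Leaving out each mouse in turn gave 0 to 6 higher, with 6 without wild-type mouse 3. Of the 10 genes, 1 (Hephl1) was called by DESeq2 and 1 (Hephl1) by the likelihood ratio test, and of the other iron and copper genes 1 (Slc39a8) by each, and the cause was not tested. Slc39a8 had a log2 fold change of 2.86 with DESeq2 and 2.85 with the likelihood ratio test. Over 159 refitted log2 fold changes of the 10 genes, 153 moved by no more than the spread between mice, a wide bound for refits that share most libraries. Of the 6 that moved by more, Hephl1, Tfrc and Slc11a2 did so without wild-type mouse 1. The others were Ltf without wild-type mouse 2, Slc40a1 without IL-21isoTg mouse 2 and Ftl1 on library totals. Hephl1 could not be fitted with at least 10 counts in every mouse, since it did not pass that filter. Signs turned with a mouse left out for Alas1 (from -0.17 to 0.24), Pam (from -0.61 to 0.10) and Pcbp1 (from -0.25 to 0.057), with values above 0 for Alas1 without wild-type mouse 2 or IL-21isoTg mouse 2 or 3, for Pam without wild-type mouse 2 and for Pcbp1 without IL-21isoTg mouse 3, and for Slc25a28 on library totals (-0.069). None of them was called. The number of other iron and copper genes higher at an unadjusted p under 0.05 was 9, between 7 and 11 under every other alternative, and 1 on library totals. A replicate block, with the mouse number as a term, gave 0 calls in each direction, 0 among the 10 genes and 0 among the other iron and copper genes. Mice with the same number deviated from their group means with correlations of -0.22, 0.07 and -0.06. The largest were those of wild-type mouse 1 with IL-21isoTg mouse 3 (0.23) and of wild-type mouse 2 with IL-21isoTg mouse 1 (0.23). These values do not show a pairing by number, and with 3 mice per group they cannot exclude one. Depth limits Hephl1 in wild-type MECs, where it had 2 to 25 counts.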

Other observations

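Ratios between 2 of the genes within a mouse do not depend on how the libraries are scaled, and 6 were computed after the levels had been seen, so they are given as a description without a test. Trf over Cp per transcript length was 18.1, 21.9 and 23.4 in wild-type mice against 44.0, 36.2 and 33.1 in IL-21isoTg mice, and the groups did not overlap. IL-21isoTg mouse 3, in which Cp lay within the wild-type range and the salivary gland share was highest, had the lowest of the IL-21isoTg ratios. A ratio within a mouse can still vary with the mix of cells in the preparation, and the part of that mix was not tested. Fth1 over Slc40a1, ferritin heavy chain over the exporter, was 448.4, 461.7 and 376.8 in wild-type mice against 2032, 816.3 and 1402 in IL-21isoTg mice, again without overlap. Slc40a1 had only 34, 96 and 16 counts in IL-21isoTg mice 1 to 3. The 2 ferritin chains kept a similar ratio, although reads of Ftl1 and Gm10252 cannot be told apart. Fth1 over Ftl1 was 0.664 to 1.11 in wild-type mice against 0.827 to 1.08 in IL-21isoTg mice. Trf over Ltf overlapped as well, from 1.62 to 4.77 and from 3.23 to 5.54, as did Cp over Heph, from 5.31 to 24.0 and from 20.02 to 35.3, and Tfrc over Fth1, from 0.0323 to 0.0779 and from 0.0211 to 0.0367.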
